A study of Mus musculus with 6 samples.

Results

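The lymphocytes described here are the T cells and natural killer (NK) cells of the mouse uterine tube (oviduct), 384 of 19619 barcodes in 6 droplet single-cell libraries. A barcode was a member when it held at least 500 UMIs (unique molecular identifiers, each counted as 1 captured transcript) and 250 genes, and when at least 2 of 9 T and NK genes were detected (Cd3d, Cd3e, Cd3g, Nkg7, Ncr1, Klrb1c, Gzma, Gzmb and Il2rb). It also needed a UMI of Ptprc, which encodes the pan-leukocyte surface protein CD45, or else at least 3 of the 9 genes. Barcodes with 3 or more UMIs of the keratin and Epcam genes, or of Lyz2, Csf1r and Cd68, were left out, which removed 15 and 2 barcodes. Members were split into 172 with a UMI of Cd3d, Cd3e or Cd3g and 212 without one. The members were thus chosen on the values of 17 genes, and the levels of those genes are given as a description only.

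The tubes came from adult C57BL6 females in estrus and each was divided into a proximal section, toward the uterus, and a distal section, toward the ovary. Tissue of 1 section was pooled over a group of mice, so a library stands for a pool and not for a mouse. There were 3 proximal libraries (titled group 2, 3 and 4) and 3 distal libraries (titled group 1, 2 and 3). The sample descriptions number the distal libraries differently from the titles, so which proximal and distal pools share a group of mice is not clear. The tissue was dissociated with enzymes and dead cells were removed.

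T cells carry an antigen receptor that signals through the CD3 chains, with alpha and beta or gamma and delta receptor chains. NK cells lack that receptor and are governed by arrays of activating and inhibitory receptors, among them the Ly49 (Klra) and NKG2 (Klrc, Klrk) families. Both can kill with perforin and granzymes and call other leukocytes with chemokines, and in the female reproductive tract they live within the epithelium and the stroma.

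The proximal libraries gave 91, 7 and 104 members and the distal libraries 48, 89 and 45. Proximal 3 stood apart, with 327 barcodes, 426707 UMIs and 7 members that held 5561 UMIs in all, and it entered no gene test, which required at least 10 cells. In proximal 2, 353 of 1189 listed barcodes were below the minimum of UMIs or genes, against 0 to 317 in the other libraries. The median number of UMIs per member was 2584, 680 and 684 in proximal 2, 3 and 4, and 1870.5, 2098 and 1542 in distal 1, 2 and 3. Of all listed barcodes, 211 occurred in more than 1 library. They included the barcodes of 15 members, and 1 barcode was a member in both proximal 4 and distal 2.

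The label of the cells was checked against their markers. In CPM (UMIs of a gene divided by all UMIs of the same cells and scaled to 1000000), Nkg7, a granule membrane protein of cytotoxic cells, averaged 2087 CPM in members and 3.89 CPM in the other barcodes over the 5 libraries with enough members. Gzma, the granule protease granzyme A, averaged 3752 CPM in members and 4.25 CPM in other barcodes. Ptprc averaged 1131 CPM in members and 14.1 CPM in others. These genes chose the members, so the contrast is set by the rule. The 54 members with exactly 2 of the 9 genes had a median of 1167 UMIs. Just outside the rule stood 35 barcodes with Ptprc and 1 of the genes, and 23 with 2 of the genes and no Ptprc.

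Genes outside the rule with the largest ratio of members over other barcodes were mostly NK and cytotoxic genes. Ccl5, a chemokine that draws T cells and monocytes, averaged 15368 CPM in members and 43.3 CPM in other barcodes. Prf1, the pore-forming protein perforin, averaged 325 CPM in members and 0.739 CPM in others. The Ly49 genes Klra4, Klra7, Klra8 and Klra9, the receptors Klre1, Klrk1, Klrc1, Klri2 and Klrb1b, the chemokine Xcl1 and the transcription factor Tbx21 (T-bet) were also among the 20. So were the antibody genes Jchain and Igha, with 1474 and 146 UMIs in members, all of them in distal 1. Ccl5 was detected in 80.2% of members and in 1.15% of the 19235 other barcodes, and in 0.937% of those with 3 or more collagen and Dcn UMIs. By library, the share in other barcodes was 5.50%, 1.56% and 5.84% in proximal 2, 3 and 4 and 0.309%, 1.41% and 0.556% in distal 1, 2 and 3, and in collagen-rich barcodes of proximal 2 it was 7.57%. Median UMI counts of kept barcodes ran from 733 to 4651 over the libraries.

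A few members carried genes of other cell types. All 1474 Jchain UMIs, which encode the joining chain of antibodies, came from 1 distal 1 barcode without Cd3. A distal 3 barcode without Cd3 held 500 of the 825 Hbb-bs UMIs (beta globin), and a proximal 2 barcode without Cd3 held 144 of the 170 H2-Ab1 UMIs (MHC class II). In all, 6 members held 20 or more UMIs of Jchain, H2-Ab1 and the 2 globin genes Hba-a1 and Hbb-bs. Of 6 dendritic cell markers, 5 were detected and Xcr1 was at 0, and they summed to 1008 and 394 CPM in members of proximal 2 and 4, against 105, 60.2 and 70.4 CPM in distal 1, 2 and 3. In other barcodes the dendritic markers summed to 232 and 367 CPM in proximal 2 and 4. In distal 1, 2 and 3 other barcodes held 49.8, 143 and 47.0 CPM. Members thus lay above other barcodes in each of these libraries but distal 2. Of 8 myeloid markers, 5 were detected, with 51 UMIs in all members, and Csf1r, C1qa and Adgre1 were at 0. The markers Lyz2, Csf1r and Cd68 are genes of the rule, so their low counts are in part set by it. Of 3 neutrophil markers, 2 were detected with 27 UMIs and Csf3r was at 0, and of 6 B cell markers, 2 were detected with 16 UMIs and Ms4a1, Ighm and Igkc were at 0. Mast cell markers had 5 UMIs, with Cpa3 and Mcpt4 at 0, and the 3 lymphatic endothelial and 3 mesothelial markers had 0. The 4 blood endothelial markers had 132 UMIs and summed to 81.4 and 405 CPM in members of proximal 2 and 4, against 428, 13.9 and 235 CPM in distal 1, 2 and 3. In other barcodes the endothelial markers summed to 39.9 and 244 CPM in proximal 2 and 4. In distal 1, 2 and 3 other barcodes held 145, 37.4 and 76.1 CPM. Here too members lay above other barcodes in each of these libraries but distal 2. The 6 epithelial markers, 4 of them genes of the rule, had 268 UMIs, and 15 members held 3 or more. They summed to 209 and 361 CPM in members of proximal 2 and 4, and to 542, 236 and 681 CPM in distal 1, 2 and 3. The other barcodes held 3765 to 3982 CPM in those proximal libraries and 6959 to 8987 CPM in distal ones. The 4 smooth muscle and 3 ciliated markers had 62 and 23 UMIs in members. The part of these cell types in the results was not tested. Fibroblast genes were present: the 6 markers summed to 88.4 and 2245 CPM in proximal 2 and 4 and to 2079, 2871 and 1855 CPM in distal 1, 2 and 3, while the other barcodes held 17116 and 11115 CPM in proximal 2 and 4 and 5381 to 10694 CPM in distal libraries. In proximal 3 they summed to 1618 CPM in members and 5744 CPM in other barcodes. Collagen genes and Dcn reached 3 or more UMIs in 18 members, and values without these 18 are given with the results that change.

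T and NK members made up a larger share of barcodes in the proximal libraries, although the design could not reach a p below 0.1. Shares were 10.9%, 2.14% and 9.06% in proximal 2, 3 and 4, against 0.669%, 2.05% and 0.776% in distal 1, 2 and 3. All 3 proximal shares lay above the distal ones, but proximal 3 and distal 2 were nearly equal, with exact 95% intervals of 0.865% to 4.36% and 1.65% to 2.52% that cover counting error only. The mean was 7.36% ± 4.61 in proximal and 1.17% ± 0.769 in distal libraries (SD, n = 3 each), a difference of 6.20 percentage points (two-sided exact permutation test, p = 0.1, the smallest it can give, and adjusted p = 0.1 over the 2 shares tested). The proximal sections differed also in the number of barcodes recovered, 327 to 1148 kept against 4339 to 7171 in distal sections. Whether the lymphocytes were more numerous or other cells were recovered less well cannot be told apart from shares. When every barcode was thinned to 500 UMIs, the shares were 6.82%, 1.83% and 6.88% in proximal and 0.363%, 1.45% and 0.431% in distal libraries (exact permutation p = 0.1). With a minimum of 1000 UMIs they were 12.2%, 0.909% and 4.23% in proximal and 0.707%, 2.03% and 0.811% in distal libraries, and the ranges overlapped through proximal 3, where 1 member was left (exact permutation p = 0.2). They overlapped also when 3 genes of the set or a Ptprc UMI were required of every member, or when members with 3 or more collagen and Dcn UMIs were left out (exact permutation p = 0.2 each).

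The Cd3 split ran the other way. Members with a Cd3 UMI made up 33.0%, 0% and 36.5% of members in proximal 2, 3 and 4, against 47.9%, 65.2% and 51.1% in distal 1, 2 and 3. The proximal 3 value is 0 of 7 members, which allows a share of up to 42.9%. The means were 23.2% ± 20.1 in proximal and 54.7% ± 9.18 in distal libraries (SD, n = 3 each), a difference of -31.6 percentage points (two-sided exact permutation test, p = 0.1, the smallest it can give, adjusted p = 0.1). The ranges did not overlap. A Cd3 UMI can be missed in a shallow cell, so every barcode was thinned to 500 UMIs and the rule applied again. That left 57, 6 and 79 members in proximal 2, 3 and 4 and 26, 63 and 25 in distal 1, 2 and 3. Their Cd3 shares were 17.5%, 0% and 24.1% in proximal and 26.9%, 50.8% and 20% in distal libraries, which overlapped (exact permutation p = 0.2). Before thinning, proximal 2 had the deepest members, at a median of 2584 UMIs. The part of depth in the section difference was not tested. With a minimum of 1000 UMIs, proximal 4 had 66.7% of 27 members with Cd3, and the order of the regions was lost (exact permutation p = 0.5).

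**Figure D1:**
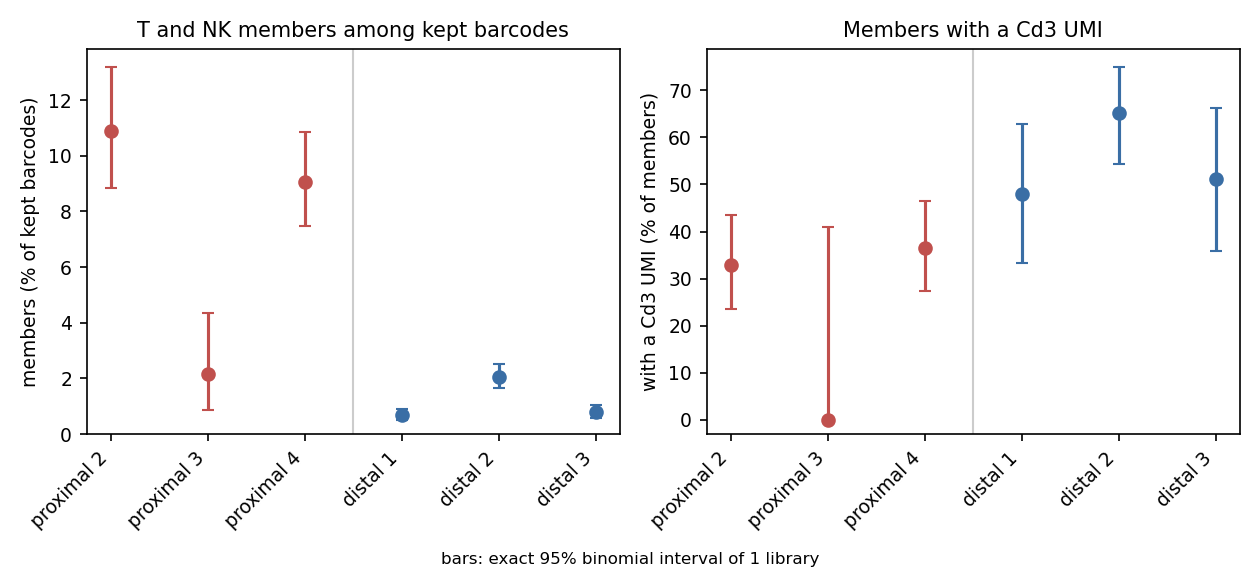
Share of T and NK members among kept barcodes (left, percent) and share of members with a Cd3 UMI (right, percent) in each library, with exact 95% binomial intervals. The proximal libraries lie at 10.9%, 2.14% and 9.06% on the left, above the distal libraries at 0.669% to 2.05%, while on the right the proximal libraries lie below the distal ones.

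Members with and without Cd3 differed in many genes, in the directions by which T and NK cells are usually told apart. Counts were summed per library and class in 5 libraries and compared with the library as a term (edgeR quasi-likelihood test, Benjamini-Hochberg adjustment at 0.05). Of 918 genes tested, 150 passed (16.3%), 68 rose (7.41%) and 82 fell (8.93%) in members with Cd3, and outside the rule 65 rose and 75 fell. DESeq2 called 82 of the 918 (8.93%). Members without Cd3 had to carry 2 of the 6 other genes, which are cytotoxic and NK genes, so they were chosen for an NK profile and the contrast in related genes is in part set by the rule. In 25.3% of the tested genes all 5 libraries moved the same way.

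Receptor and signalling genes of T cells were higher with Cd3. Tcra, the T cell receptor alpha locus, had 571 and 390 CPM in proximal 2 and 4 and 308, 695 and 508 CPM in distal 1, 2 and 3 in members with Cd3. In members without Cd3 it had 22.7 and 59.7 CPM in those proximal libraries and 16.0, 13.6 and 0 CPM in the distal ones. All values with Cd3 lay above all values without, and the log2 fold change was 4.44 ± 0.384 (SE, edgeR adjusted p = 3.89e-05). Bcl11b, a transcription factor that holds T cell identity, averaged 321 ± 75.6 CPM with Cd3 and 14.4 ± 22.1 CPM without (SD, n = 5, log2 fold change 4.82). Of the 19 genes of the T cell receptor and signalling list outside the rule, 9 were tested and 6 rose (among them Cd247, Cd28, Lat, Thy1 and Bcl11b), 0 fell, and the median log2 fold change of the 9 was 1.48. Over all genes tested 7.41% rose and 8.93% fell. A list gene could pass the filter on counts through the Cd3 class alone, so the count and median of the list support nothing further. Lat, the adaptor that links the receptor to its signalling enzymes, averaged 487 ± 96.8 CPM with Cd3 and 107 ± 39.8 CPM without (SD, n = 5). The kinase Lck, shared by T and NK cells, averaged 561 ± 359 CPM with Cd3 and 449 ± 126 CPM without and did not pass the test (edgeR adjusted p = 0.756). Cd28 did not pass without proximal 2, distal 1 or distal 2 (edgeR adjusted p up to 0.128).

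Several genes below the filter on counts had next to no UMIs without Cd3. Cd8a had 76 UMIs in members with Cd3 and 1 without, and Cd4 had 23 and 0. The surface receptors Cd5 and Cd6 had 62 and 54 UMIs with Cd3 and 2 each without. The costimulatory receptor Icos averaged 226 ± 94.5 CPM with Cd3 and 27.9 ± 28.2 CPM without, and Il7r, the interleukin 7 receptor of resting T cells and innate lymphoid cells, 221 ± 152 and 19.0 ± 20.2 CPM (SD, n = 5, neither tested). Ltb, the membrane cytokine lymphotoxin beta, rose, with 510 ± 207 CPM with Cd3 and 161 ± 109 CPM without. Other named genes that rose were Camk4, Sntb1, Gramd3, S100a4, Ifi27l2a and Grap2, with log2 fold changes of 3.84, 2.98, 2.50, 2.49, 2.44 and 2.22. Nr3c1, the glucocorticoid receptor, averaged 406 ± 207 CPM with Cd3 and 152 ± 20.1 CPM without, and its log2 fold change was 1.28 ± 0.263 (edgeR adjusted p = 0.00712). The oestrogen receptor Esr1 was low in both classes, at 72.2 ± 114 CPM with Cd3 and 74.2 ± 29.0 CPM without (SD, n = 5, not tested).

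NK receptor genes were lower with Cd3. Tyrobp, the adaptor DAP12 of activating NK receptors, had 300 and 171 CPM in proximal 2 and 4 and 443, 337 and 254 CPM in distal 1, 2 and 3 in members with Cd3. In members without Cd3 it had 3536 and 1432 CPM in those proximal libraries and 2687, 3554 and 3294 CPM in the distal ones. The classes did not overlap, and the log2 fold change was -3.27 ± 0.191 (SE, edgeR adjusted p = 2.72e-06). Fcer1g, a partner adaptor, averaged 292 ± 145 CPM with Cd3 and 2372 ± 769 CPM without (SD, n = 5). Of the 21 genes of the NK list outside the rule, 12 passed the filter on counts and all 12 fell, with a median of -2.79. Over all genes tested 8.93% fell. A list gene could pass through the NK class alone, so the count of the list supports nothing further.

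Ly49 family genes lie close together and are near-identical in stretches, so counts could be split between them. Klra8, the activating receptor Ly49H of C57BL6 mice, had 2 UMIs in members with Cd3 and 234 without, a ratio of pooled CPM of 0.00878 (95% counting interval 0.00106 to 0.0321). Klra4 averaged 120 ± 158 CPM with Cd3 and 971 ± 385 CPM without, and it was at 0 in proximal 2 and 4 with Cd3. Klra7, Klre1, Klrc1, Klrk1, Klrd1 and Klrb1b fell, with log2 fold changes between -3.51 and -1.89. Tbx21 and the kinase Txk fell by 1.00 and 1.17 on the log2 scale, and Tbx21 did not pass without proximal 2, distal 1 or distal 3 (edgeR adjusted p up to 0.113). Eomes, the second T-box factor of NK cells, was seen in 60 of 212 members without Cd3 and in 7 of 172 with Cd3.

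Killing and chemokine genes were mostly lower with Cd3 as well. Prf1 had 18.7 and 122 CPM in proximal 2 and 4 and 19.2, 21.1 and 21.2 CPM in distal 1, 2 and 3 with Cd3. Without Cd3 it had 796 and 378 CPM in the proximal and 448, 599 and 843 CPM in the distal libraries, and the log2 fold change was -4.21 ± 0.446 (SE, edgeR adjusted p = 0.000115). The classes did not overlap, and proximal 4 was the library with the smallest difference. Ctsw, Serpinb9 and Serpinb6b, a granule protease and 2 inhibitors of granule proteases, fell as well. Of the 6 tested genes of the cytotoxic granule list, 4 fell and 0 rose, beside 8.93% lower and 7.41% higher over all genes tested, and a gene could pass the filter through the class without Cd3, which the rule chose on cytotoxic genes. Srgn, the granule proteoglycan serglycin, averaged 1177 ± 389 CPM with Cd3 and 1152 ± 358 CPM without (edgeR adjusted p = 0.945). Gzmd, Gzme, Gzmf and Gzmg, granzymes known from uterine NK cells of pregnancy, had 0 UMIs in members.

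The chemokine Ccl3 averaged 57.3 ± 56.5 CPM with Cd3 and 1791 ± 768 CPM without, and Ccl4 490 ± 450 and 3672 ± 877 CPM (SD, n = 5). Ccl5 was high in both classes and fell with Cd3, at 8928 ± 6385 CPM against 21717 ± 5217 CPM without. Xcl1, which draws cross-presenting dendritic cells, fell by 1.81 on the log2 scale. Of 7 tested cytokine and chemokine genes 4 fell and 1 (Ltb) rose, a count to which the same limit of the filter applies. Of 9 tested homing genes, 4 fell (among them Klf2, Itga4 and Itgb2) and 1 rose (Itgb7, the beta chain of the gut-homing integrin). Over all genes tested 8.93% fell and 7.41% rose. The limit of the filter applies to the homing genes and to the lists that follow too. Itgb7 did not pass once 2 members over 10000 UMIs were left out (log2 fold change 0.44, edgeR adjusted p = 0.354), nor without proximal 2 or any 1 distal library (edgeR adjusted p up to 0.327). Itga4 did not pass without any 1 distal library (edgeR adjusted p up to 0.158). Irf8, a transcription factor with a known role in NK cells and dendritic cells, fell by 4.54 on the log2 scale. In the remaining lists few genes passed the filter on counts. Bhlhe40 fell among 5 tested residency genes, Id2 and Il18rap among 4 innate lymphoid genes and Jund among 16 stress genes, Ifi27l2a rose among 3 interferon genes, and 0 of 3 MHC class I genes passed (edgeR quasi-likelihood test). Bhlhe40, Il18rap and Jund did not pass without proximal 2 or any 1 distal library (edgeR adjusted p up to 0.152, 0.122 and 0.120). Tubb5, the tested cell cycle gene, rose by 1.05 on the log2 scale and did not pass without proximal 2, proximal 4 or distal 1 (edgeR adjusted p up to 0.181). The gamma-delta, checkpoint and regulatory T cell lists had 0 genes tested.

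The promoters of 2 genes of each class are printed, Cd3g and Cd3d for the receptor and Ncr1 and Prf1 for NK cells. Cd3g and Cd3d define the split and Ncr1 is a gene of the rule, whereas Prf1 lies outside the rule. They are RefSeq windows of 300 bases on build GRCm38.p6, 250 before to 50 after the gene start, read 5′ to 3′ on the gene's strand. For Ncr1 there were 2 windows, and the first is printed. The counts were made on another build (mm39). Capitals mark matches on either strand to TGTGGT, a core motif of Runx factors, or to AGGTGT, a core motif of T-box factors such as T-bet and Eomes. The windows are chr9:44980382-44980681 on the minus strand for Cd3g, chr9:44981536-44981835 on the plus strand for Cd3d, chr7:4337465-4337764 on the plus strand for Ncr1 and chr10:61297586-61297885 on the plus strand for Prf1.
Cd3g: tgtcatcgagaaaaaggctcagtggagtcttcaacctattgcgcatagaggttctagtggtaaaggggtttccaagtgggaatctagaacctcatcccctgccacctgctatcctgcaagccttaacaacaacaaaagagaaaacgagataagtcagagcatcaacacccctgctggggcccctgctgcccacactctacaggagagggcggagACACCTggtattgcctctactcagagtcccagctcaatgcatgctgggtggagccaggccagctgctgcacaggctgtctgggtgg
Cd3d: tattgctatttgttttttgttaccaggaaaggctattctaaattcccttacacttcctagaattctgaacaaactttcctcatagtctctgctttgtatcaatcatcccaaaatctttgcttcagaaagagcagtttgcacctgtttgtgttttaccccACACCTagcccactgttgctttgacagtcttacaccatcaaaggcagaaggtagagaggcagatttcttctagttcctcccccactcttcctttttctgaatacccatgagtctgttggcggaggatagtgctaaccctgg
Ncr1: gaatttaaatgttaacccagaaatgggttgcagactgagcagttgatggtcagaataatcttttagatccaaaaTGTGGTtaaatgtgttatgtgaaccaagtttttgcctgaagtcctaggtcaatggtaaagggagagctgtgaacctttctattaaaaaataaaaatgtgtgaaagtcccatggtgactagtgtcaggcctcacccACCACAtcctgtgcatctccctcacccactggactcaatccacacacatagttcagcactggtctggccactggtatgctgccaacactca
Prf1: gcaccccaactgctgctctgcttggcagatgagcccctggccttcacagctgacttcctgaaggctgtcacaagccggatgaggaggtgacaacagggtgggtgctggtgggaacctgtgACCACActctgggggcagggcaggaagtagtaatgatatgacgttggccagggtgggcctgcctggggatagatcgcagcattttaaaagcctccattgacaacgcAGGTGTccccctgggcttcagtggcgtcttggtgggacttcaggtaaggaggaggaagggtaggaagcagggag

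The Ncr1 window held 2 matches to TGTGGT and 0 to AGGTGT, and the Prf1 window held 1 of each. The Cd3g and Cd3d windows held 1 match each to AGGTGT and 0 to TGTGGT. Of 27025 promoters of the same length, 1 per gene symbol, 16.9% held TGTGGT and 13.9% held AGGTGT on either strand. The matches are letters in a window and no evidence of binding.

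**Figure D2:**
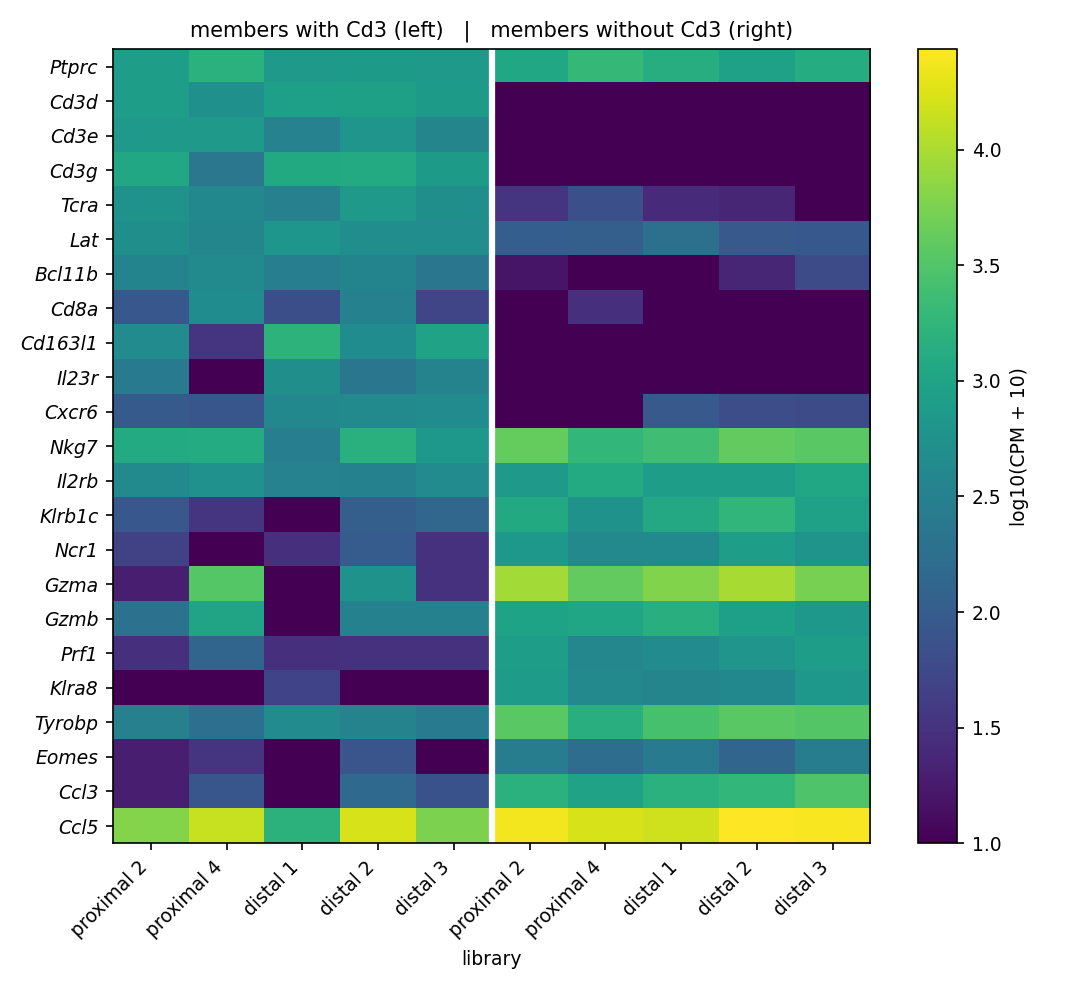
Levels of 23 genes, as log10 of CPM plus 10, in members with Cd3 (left) and without Cd3 (right) in each of 5 libraries. Tcra, Lat and Bcl11b are brighter on the left, Tyrobp, Prf1 and Klra8 on the right, and Cd163l1 and Il23r are at 0 throughout the right side; Cd3d, Cd3e and Cd3g define the classes.

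**Figure D3:**
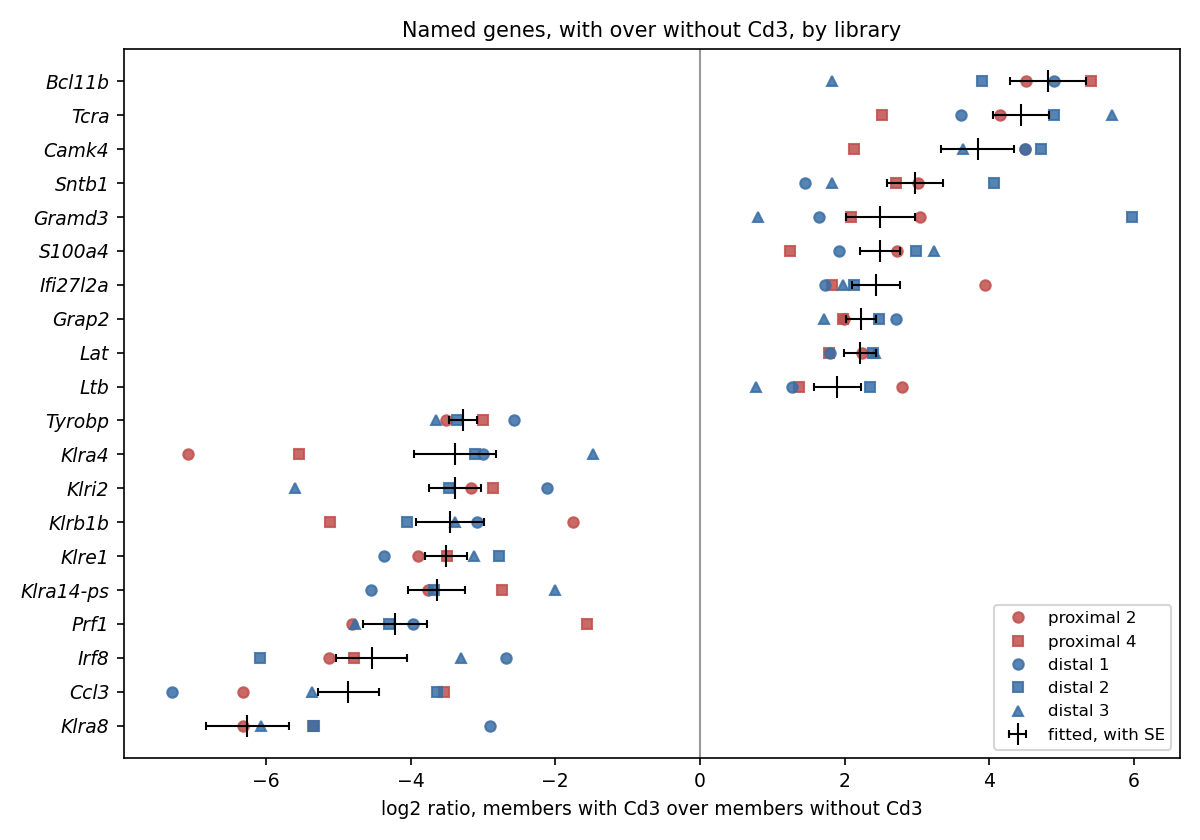
Log2 ratio of members with Cd3 over members without Cd3, for the 10 genes outside the rule with the largest rise and the 10 with the largest fall. Each library is a point (pseudocount 10 CPM) and the black bar is the fitted value with its SE. The genes were chosen for moving the same way in all 5 libraries, and the points show how far the libraries spread.

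Among the 172 members with Cd3, genes of the main T cell types seldom met in 1 cell. A Cd8a or Cd8b1 UMI, the coreceptor of cytotoxic T cells, was seen in 62 cells, and a Cd4 UMI, the coreceptor of helper T cells, in 16. At least 2 genes of the gamma-delta list were seen in 38 cells, called gamma-delta cells here, and 57 cells had none of these marks. None of the 38 gamma-delta cells held a Cd8 or Cd4 UMI, and 1 cell held both Cd8 and Cd4. Foxp3, the factor of regulatory T cells, was seen in 1 cell. The gamma-delta cells were recognised mainly by Cd163l1 (SCART1, a scavenger receptor), Il23r (the interleukin 23 receptor), Blk (a kinase) and Zbtb16 (the factor PLZF), with 244, 98, 65 and 74 UMIs in members with Cd3 and 0, 0, 0 and 14 without. The receptor constant genes themselves were sparse, with 4 UMIs of Trdc in 4 members with Cd3 and 27 of Trgc1 in 18. Trdc also had 3 UMIs in 3 members without Cd3. The name gamma-delta therefore stands for genes of the list, and which receptor these cells carried was not tested. Il17a, which encodes the cytokine interleukin 17A, had 12 UMIs in members with Cd3 and 1 without.

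The cells called gamma-delta differed from the other members with Cd3 in several of the genes compared. Cxcr6, the receptor for CXCL16 found on many tissue-resident lymphocytes, was detected in 28 of 38 gamma-delta cells (73.7%) and in 24 of the other 134 members with Cd3 (17.9%). In distal libraries it was seen in 9 of 10, 10 of 11 and 6 of 10 gamma-delta cells, and in proximal 2 in 3 of 7. In the remaining members with Cd3 it was seen in 2 of 13, 13 of 47 and 5 of 13 cells of distal 1, 2 and 3, and in 1 of 23 and 3 of 38 cells of proximal 2 and 4. Ccl5 was the reverse, in 2 of 38 gamma-delta cells (5.26%) and 98 of the other 134 (73.1%), and Nkg7 was in 2 and 100. Gzma, Gzmb and Prf1 were in 0 of the 38 gamma-delta cells, which allows a share of cells with a UMI of up to 7.89%. Nkg7 and the granzymes are genes of the rule, and a cell could enter on them or on Cd3 genes. The 38 cells had a median of 2126 UMIs, against 1876 over all members with Cd3. These are shares of cells within a few libraries and were not tested.

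Cytotoxic genes were detected in part of the Cd8 cells. Ccl5 was in 50 of 62 Cd8 cells (80.6%), Nkg7 in 51, Gzmb in 22, Gzma in 20 and Prf1 in 8. In the other 110 members with Cd3 they were in 50, 51, 14, 10 and 3. Ccl5 was in 3 of 10 and 24 of 25 Cd8 cells of proximal 2 and 4. In distal 1, 2 and 3 it was in 1 of 4, 19 of 19 and 3 of 4. Nkg7, Gzma and Gzmb are genes of the rule, and these shares of cells were not tested. Of the 20 with Gzma, 19 were in proximal 4. Of members without Cd3, 6 held a Cd8 UMI, 5 of them in proximal 4, the library with a median of 684 UMIs per member. NK genes were not confined to members without Cd3. At least 3 NK list genes outside the rule were detected in 43 of 172 members with Cd3 and 192 of 212 without. Without Cd3 they were in 61 of 61, 3 of 7 and 50 of 66 members of proximal 2, 3 and 4. In distal 1, 2 and 3 they were in 25 of 25, 31 of 31 and 22 of 22. After thinning these shares were 91.8%, 28.6% and 65.2% in proximal 2, 3 and 4. They were 80%, 90.3% and 95.5% in distal 1, 2 and 3. Why proximal 3 and 4 were lower was not tested.

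The makeup of members with Cd3 differed between the sections and within them. Cd8 was seen in 10 of 30 and 25 of 38 cells in proximal 2 and 4, against 4 of 23, 19 of 58 and 4 of 23 in distal 1, 2 and 3. Gamma-delta cells were 7 of 30 and 0 of 38 in the proximal libraries, against 10 of 23, 11 of 58 and 10 of 23 in the distal ones. Proximal 2 and distal 2 were close for both marks, so the extremes were proximal 4 on one side and distal 1 and 3 on the other. After thinning to 500 UMIs, gamma-delta cells were 6.67% and 0% in proximal 2 and 4 and 30.4%, 13.8% and 30.4% in distal 1, 2 and 3, and Cd8 cells 20% and 47.4% in proximal 2 and 4 against 13.0%, 19.0% and 8.70% in distal 1, 2 and 3. With 2 proximal libraries against 3 these shares were not tested.

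**Figure D4:**
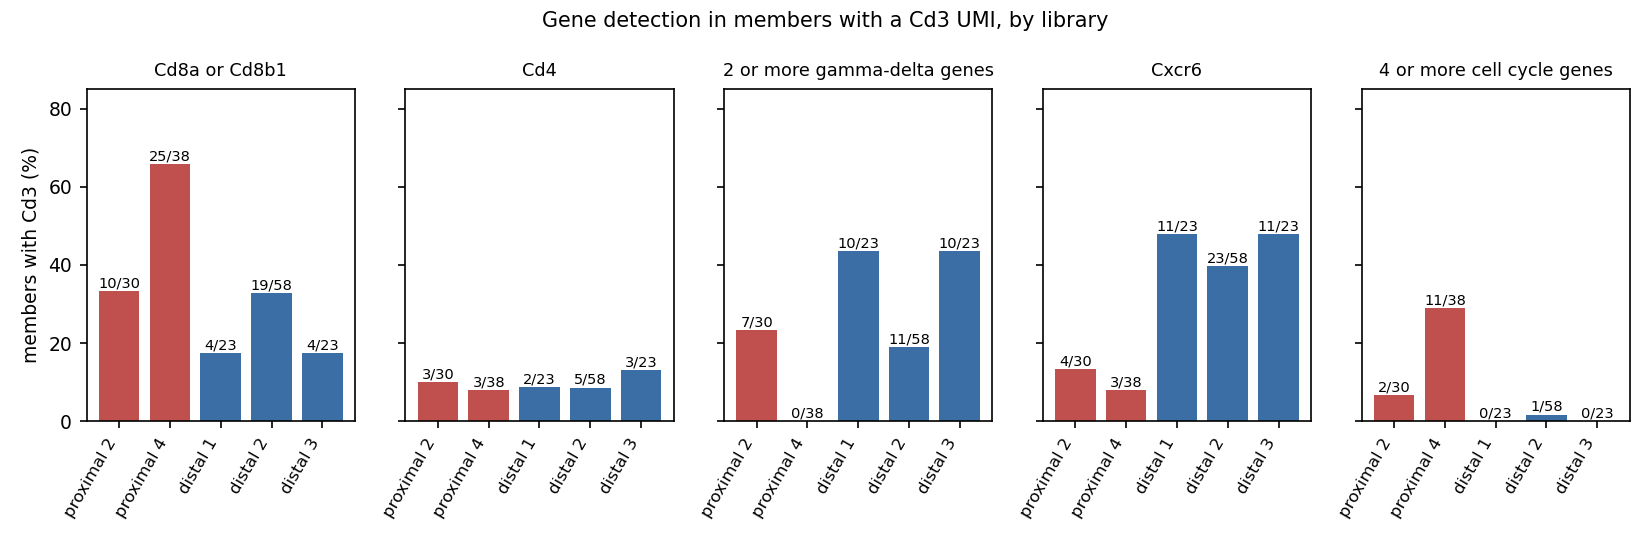
Percent of members with Cd3 in which each mark was detected, by library, with the number of cells over the bars. Gamma-delta cells are at 23.3% and 0% in proximal 2 and 4 and at 43.5%, 19.0% and 43.5% in distal 1, 2 and 3, so the sections overlap, Cxcr6 cells are at 13.3% and 7.89% in proximal 2 and 4 and at 39.7% to 47.8% in distal libraries, Cd8 cells reach 65.8% in proximal 4, and cells with 4 or more cell cycle genes are mostly in proximal 4.

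Comparing the sections within members with Cd3 (2 proximal and 3 distal libraries), 14 of 1036 genes passed (1.35%), 6 rose (0.579%) and 8 fell (0.772%) in proximal cells (edgeR quasi-likelihood test, Benjamini-Hochberg adjustment at 0.05). An unadjusted p under 0.05 was seen for 153 genes (14.8%), and DESeq2 called 21 (2.03%). The libraries of the 2 sections did not overlap in 35.1% of the tested genes. Without distal 1, 2 or 3 the number was 12, 10 and 0. Without proximal 2 or proximal 4 no replicate is left on the proximal side, so counts of section differences from those fits are not given. The genes fell into 3 groups, which are described by turn.

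The first was the lymphocyte gene Cxcr6. It had 84.3 and 73.1 CPM in proximal 2 and 4, against 385, 435 and 445 CPM in distal 1, 2 and 3. The 2 sections did not overlap, and the log2 fold change was -2.31 ± 0.444 (SE, edgeR adjusted p = 0.0190). Other barcodes held 0 to 2.65 CPM of Cxcr6 in all 6 libraries, and 0.26% of them had a UMI. It did not pass without distal 2 or distal 3, without the 2 members over 10000 UMIs (edgeR adjusted p = 0.0568) or after thinning, and over 15 alternatives its log2 fold change ran from -2.53 to -2.09 with adjusted p-values up to 0.154. Of the 6 tested genes of the tissue residency list it was the one called. Of the 13 tested T cell receptor and signalling genes 0 passed, with a median log2 fold change of 0.40, against -0.02 over all genes tested outside the rule.

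Genes of the gamma-delta list did not pass. Cd163l1 had 440 and 24.4 CPM in proximal 2 and 4, against 1674, 456 and 932 CPM in distal 1, 2 and 3 in members with Cd3. The sections did not overlap, but proximal 2 lay close to distal 2, and the log2 fold change was -1.87 ± 0.752 (SE, edgeR adjusted p = 0.247). Il23r had 243 and 0 CPM in proximal 2 and 4, against 500.3, 211 and 339 CPM in distal 1, 2 and 3, and the sections overlapped. Blk had 122 and 0 CPM in proximal 2 and 4, against 192, 147 and 445 CPM in distal 1, 2 and 3. In all members together the 4 tested genes of the list (Cd163l1, Il23r, Blk and Zbtb16) had log2 fold changes of -2.21, -1.52, -1.99 and -1.57 and unadjusted p-values of 0.00411, 0.0319, 0.0156 and 0.00745, and 0 passed the adjustment, while 9.23% of all genes tested had an unadjusted p under 0.05. Cd8b1 had a log2 fold change of 1.56 ± 0.494 in members with Cd3 (edgeR adjusted p = 0.119).

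The second group were genes of dividing cells. Hmgb2, a chromatin protein that is abundant in cycling cells, had 993 and 877 CPM in proximal 2 and 4, against 38.5, 126 and 106 CPM in distal 1, 2 and 3. The sections did not overlap, and it rose by 3.32 ± 0.460 on the log2 scale (SE, edgeR adjusted p = 0.00562). Hmgb2 was higher in other proximal barcodes too, at 40.5 and 54.7 CPM in proximal 2 and 4. In distal 1, 2 and 3 other barcodes held 16.9, 17.6 and 20.6 CPM. Pclaf, a partner of the replication clamp, had 262 and 560 CPM in proximal and 0, 21.1 and 21.2 CPM in distal libraries, and the tubulin gene Tuba1b 693 and 780 CPM against 38.5, 182 and 42.3 CPM. Of the 10 genes of the cell cycle list, 2 were tested, Hmgb2 and Tubb5, and 1 was called.

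These UMIs came from few cells. At least 4 of the 10 cell cycle genes were detected in 15 members, 14 of them with Cd3, and these held 427 of the 852 UMIs of the list. In proximal 2, 2 cells with Cd3 and 17866 and 10187 UMIs held 87 of the 131 Hmgb2 UMIs of all its members, and without them Hmgb2 did not pass (log2 fold change 2.50, edgeR adjusted p = 0.0890). In proximal 4, 11 cells with Cd3 had at least 4 cycle genes, 9 with Cd8 and 10 with Gzma, at 889 to 1975 UMIs each. In the distal libraries, 1 cell of distal 2 had as many. Whether the 2 deep barcodes are doublets was not tested.

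The third group were genes of other cell types. Of the 8 that fell, 7 are stromal: the collagens Col1a1 and Col1a2, the matrix genes Dcn and Mgp, the collagen chaperone Serpinh1, the growth factor Mdk and the BMP antagonist Nbl1. Col1a2 had 37.5 and 48.7 CPM in proximal 2 and 4, against 423, 912 and 1080 CPM in distal 1, 2 and 3, and other barcodes averaged 3092 CPM in proximal and 1685 CPM in distal libraries. Serpinh1 and Mdk had 0 UMIs in proximal members with Cd3, at least 18.1-fold and 15.1-fold lower than in distal ones against a floor of 3 UMIs over the group. The 6 fibroblast markers summed to 122 and 439 CPM in proximal and to 2963 to 3345 CPM in distal members with Cd3. Without members that held 3 or more collagen and Dcn UMIs, 7 of 766 genes passed, 6 up and 1 down.

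Of the genes that rose, Hbb-bs had 478 and 3947 CPM in proximal 2 and 4, against 57.7, 63.2 and 21.2 CPM in distal 1, 2 and 3, while other barcodes averaged 1530.3 CPM in proximal and 1552 CPM in distal libraries. Its log2 fold change of 5.43 became 2.93 without the 6 members rich in Jchain, globin or H2-Ab1 UMIs. The predicted genes Gm14303 and Gm14586 rose in members with Cd3, and they were higher in other proximal barcodes too. Both failed to pass when any 1 distal library was left out. Gm14586 also did not pass with DESeq2, with library totals only or with no filter. Nor did it pass without the 2 members over 10000 UMIs or without the 6 members rich in Jchain, globin or H2-Ab1. Gm14303 had 1348 and 1340 CPM in proximal and 173, 218 and 402 CPM in distal members with Cd3, and its mean in other barcodes was 1240.2 CPM in proximal and 187 CPM in distal libraries.

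**Figure D5:**
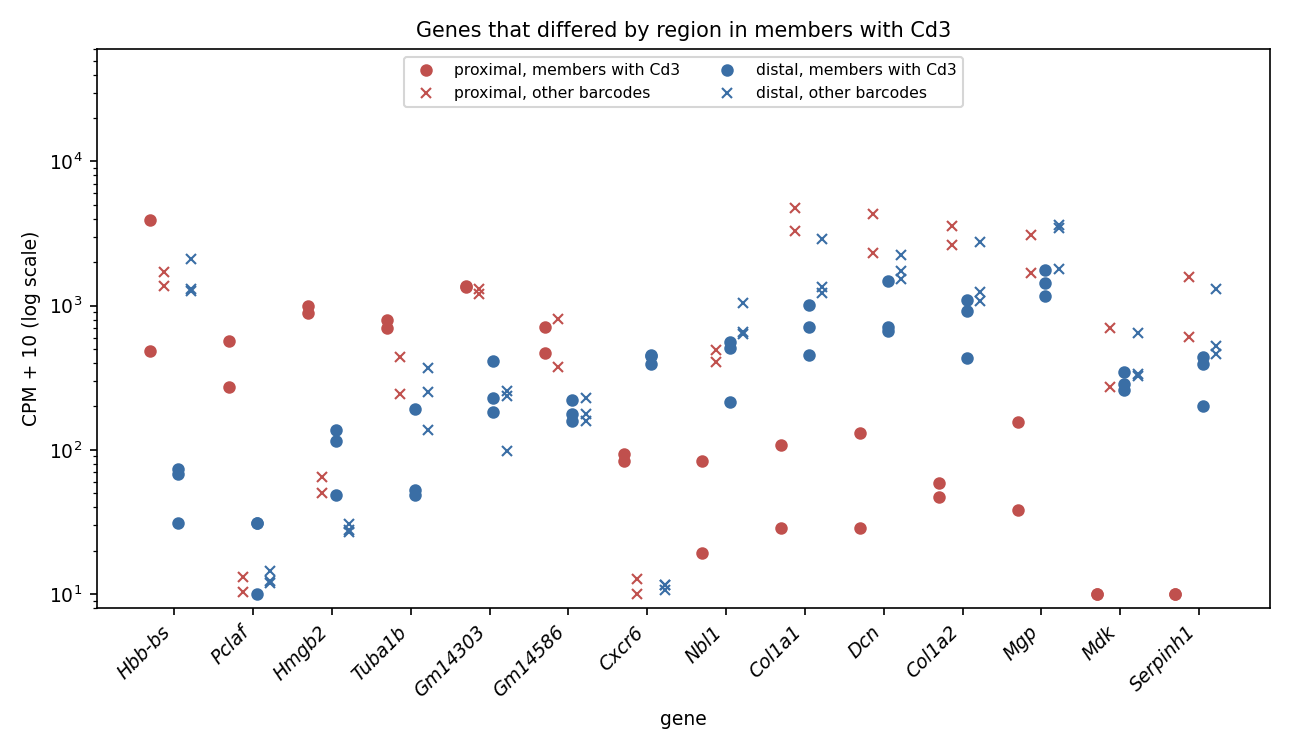
CPM plus 10 on a log axis of the 14 genes that differed by section in members with Cd3. Dots are members with Cd3, crosses the other barcodes of the same library, proximal in red and distal in blue. Cxcr6 is near 10 in other barcodes, whereas the 7 stromal genes are high in other barcodes of both sections.

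In members without Cd3, 0 of 1286 genes passed (0% of those tested, edgeR quasi-likelihood test), 68 had an unadjusted p under 0.05 (5.29%) and DESeq2 called 8 (0.622%), all higher in proximal cells. Without members with 3 or more collagen and Dcn UMIs edgeR called 7 of 1172, and with any 1 distal library left out it called 0. Among the genes with the smallest p were ribosomal protein genes: Rps28 had 847 and 1173 CPM in proximal 2 and 4, against 96.0, 191 and 211 CPM in distal 1, 2 and 3 (log2 fold change 2.66 ± 0.426, edgeR adjusted p = 0.0911). The sections did not overlap, as was so for 21.5% of the tested genes, and the other barcodes showed a gap too, with means of 1365 CPM in proximal and 214 CPM in distal libraries. Chosen after their values were seen, 55 ribosomal protein genes were tested, with a median log2 fold change of 0.48 and 19 with an unadjusted p under 0.05, all positive. No gene of the NK list was called. Its 17 tested genes had a median log2 fold change of -0.10, and the median over all genes tested outside the rule was 0.00.

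Over all members together, 0 of 2655 genes passed (0%, edgeR quasi-likelihood test), 245 had an unadjusted p under 0.05, and DESeq2 called 17 (0.64%). With any 1 distal library left out edgeR called 0. Without the 6 members rich in Jchain, globin or H2-Ab1 UMIs, a choice made after seeing the data, edgeR called 18 genes of 2407, and 10 of the 18 were among the 17 of DESeq2. Cxcr6 was the gene with the smallest p, with 31.8 and 32.9 CPM in proximal 2 and 4, against 218, 306 and 270 CPM in distal 1, 2 and 3. Its log2 fold change was -2.96 ± 0.450 (edgeR adjusted p = 0.0558), and -2.95 ± 0.441 without the 6 members (edgeR adjusted p = 0.0121). Hmgb2 had 463 and 471 CPM against 34.9, 120 and 93.9 CPM (edgeR adjusted p = 0.0559), and 0.0207 without the 6 members. In other barcodes Hmgb2 ran from 40.5 to 78.4 CPM in proximal and from 16.9 to 20.6 CPM in distal libraries. Tmem176a and Tmem176b, membrane proteins known from interleukin 17 producing T cells and from dendritic cells, had log2 fold changes of -2.09 and -2.05 in all members (edgeR adjusted p = 0.0780 for both) and passed without the 6 members at 0.0478 each. In other barcodes Tmem176b ran from 386 to 490 CPM in proximal and from 706 to 930 CPM in distal libraries. Also among the 18 were Rps28, Rpl38, Rpl39, Rpl36a-ps2, Rpl38-ps2 and Rps13-ps2, and the predicted genes Gm14303, Gm14586 and Gm36220. These were higher in proximal members and in other proximal barcodes alike. Rps28 ran from 1314 to 3004 CPM in other proximal barcodes and from 126 to 274 CPM in other distal ones.

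Whether the section difference was itself different was tested by comparing it between members with and without Cd3. Of 1578 genes, 0 differed in their difference (0%, edgeR quasi-likelihood test of the interaction), 84 had an unadjusted p under 0.05 (5.32%) and DESeq2 called 0. With any 1 distal library left out edgeR called 0. For Hmgb2 the log2 difference was 2.50 ± 0.538 larger with Cd3 (edgeR adjusted p = 0.208). That a gene was called with Cd3 and not without it therefore does not show that the classes differ between sections.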

How the data were processed

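Droplet 3′ libraries were analysed from the deposited UMI count matrices, raw counts per gene and barcode. They were made by the authors with Cell Ranger, version 7.0.0 per the file headers and 6.1.2 per the submitters' processing notes, which name build mm39. The members and the gene lists were chosen with earlier results of these data known. Counts were summed per library and class, for libraries with at least 10 such cells. They were tested with edgeR 4.0.16 (TMM scaling, quasi-likelihood test, filter of 10 counts in a library and 15 in total, Benjamini-Hochberg adjustment at 0.05) under R 4.3.3, with limma 3.58.1 and with DESeq2 1.42.0 as an alternative. The fit was tested on simulated data. Shares were compared over libraries with exact permutation tests in scipy 1.17.1, and tables and figures used Python 3.11.15, numpy 2.4.6 and matplotlib 3.10.9.

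Named genes were those past the threshold and not overlapping between groups (or moving the same way in every library) with the 10 largest changes in each direction. Every list gene past the threshold and the 3 most abundant genes of each list were added, as were, for members against other barcodes, the 20 largest ratios among genes at 100 CPM or more. Genes outside this rule were chosen after their values were seen, among them Eomes, Rps28, Tmem176a, Tmem176b, Cd4, Cd5, Cd6, Cd8a, Cd8b1, Blk, Il17a, Trgc1 and the granzymes at 0. Of 222 symbols in 15 lists, 218 were in the matrix of 50559 genes. Results for a few genes are not reported here. No doublet caller was run. Barcodes with 3 or more UMIs of the epithelial or of the myeloid genes of the rule left through it, and those with fewer stayed. The labels do not say that libraries of a section came from different days, and p-values measure the spread between pools. Library totals ran from 426707 to 32488145 UMIs, and intervals and limits cover counting error only. Alternatives were other scalings, no filter, each library left out, a replicate block for shares, thinning, and members with stromal, other-type or very many UMIs left out.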

Additional observations from a re-analysis of the deposited data

Results flagged for a closer look

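Among the 20 named genes of the comparison of members with and without Cd3, 3 had a library far from the other 4, measured as the log2 ratio of CPM with over without Cd3 (pseudocount 10 CPM). Chance gives such a library in about 1 of 20 groups. Ifi27l2a, an interferon-induced gene, had a log2 ratio of 3.94 in proximal 2, against 1.73 to 2.13 in the other libraries. Klra8 had -2.9 in distal 1, where both of its 2 UMIs with Cd3 were found, against -6.31 to -5.34 elsewhere. Without such UMIs elsewhere, those ratios were set by the pseudocount and the level without Cd3. The flag for Klra8 thus rests on 2 UMIs, and the rate of 1 in 20 may not hold for it. Prf1 had -1.56 in proximal 4, against -4.81 to -3.97 elsewhere, and proximal 4 also held 24 of the 30 members with Cd3 and a Gzma UMI.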

How the results depend on the processing

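The shares by section and the genes called in the comparisons kept their direction under the alternatives run. Hbb-bs over all members, not called at a log2 fold change of -0.74, turned to 2.66 without the 6 members rich in Jchain, globin or H2-Ab1 UMIs (edgeR adjusted p = 0.0121). The difference in the share of members ran from 4.43 to 8.81 percentage points and that in the Cd3 share from -38.2 to -20.0 with each library left out, where the smallest exact permutation p is 0.2. With a replicate block on title numbers 2 and 3 they were 5.10 and -41.7 points. The descriptions number the distal libraries differently, so this block may not pair pools of the same group. For genes, a replicate block with a term for each title number could not be fitted, since with proximal 3 left out only title number 2 occurs in both sections. A term for group 2 alone, the number on which titles and descriptions match, gave 23 genes by section with Cd3 and 0 in all members and in those without Cd3. For the section difference in all members the count of 0 became 17 with DESeq2, 95 with no filter, 0 to 227 with a library left out, 1 without stromal-rich members and 18 without the 6 members rich in Jchain, globin or H2-Ab1. With Cd3 the count of 14 became 84 with no filter, 0 to 129 with a library left out, 7 without stromal-rich members and 8 without the 2 members over 10000 UMIs. Without Cd3 the count of 0 became 8 with DESeq2, 28 with no filter, 7 without stromal-rich members and 3 with thinned sums. It stayed 0 with any 1 distal library left out. For members with over without Cd3 the count of 150 became 82 with DESeq2, 356 with no filter, 88 to 223 with a library left out and 78 with no term for the library. The interaction count of 0 became 17 with no filter and 0 to 10 with a library left out. The cause was not tested. Of 48 genes named in the Cd3 comparison 34 passed under every alternative that tested them, and of the 14 by section 0 did, since none passed without distal 3. The 7 members and 5561 UMIs of proximal 3 limit that library.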
